A study of Mus musculus with 8 samples.

Results

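Cells make cholesterol from acetyl-CoA through the mevalonate pathway, and 7 genes that encode 6 of its enzymes and 1 of its regulators were followed here across 8 mouse arrays. The genes were Hmgcs1, Idi1, Fdps, Sqle, Lss, Cyp51 and Insig1. They were taken as a given list, chosen with earlier results of these data known. Every probe set (the group of probes that reads 1 transcript) that the platform annotation pairs with 1 of them alone was used. That gave 10 probe sets of 45141, and all 7 genes were among the 13935 tested. Although the list was put together as cholesterol synthesis and uptake genes, none of the 7 encodes a lipoprotein receptor, so uptake was read from a separate list of 9 genes tested.

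The samples were mouse skin tumour cells sorted by flow cytometry on the epithelial surface protein Epcam, in 4 groups of 2 arrays. Control papilloma (a benign skin tumour) carried wild-type NR2F2, a nuclear receptor also called COUP-TFII. Papilloma with NR2F2 overexpression is called GOF, for gain of function, and the labels do not name the promoter that drives the transgene. Control squamous cell carcinoma was wild type at NR2F2 and lacked Cre. Carcinoma with loss of function, called LOF, had both Nr2f2 alleles floxed and a tamoxifen-inducible Cre under the keratin 5 promoter, so that recombination is directed to basal epithelial cells. The labels give no age, sex or strain, and it is not stated whether both arrays of a group stand for different animals. The p-values therefore describe array-to-array spread, which may be technical.

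Values are log2 expression, on which 1 unit is a doubling. The papilloma and carcinoma columns were on different scales, with medians of 3.12 to 3.16 in papilloma and of 5.08 to 5.15 in carcinoma, so that no level was compared between tumour types. Background, the highest control probe set for a non-mouse sequence, was 3.09 to 3.33 in papilloma and 4.95 to 5.01 in carcinoma. The targeted gene followed the labels: the brightest Nr2f2 probe set read 2.80 and 2.55 in control papilloma, 11.43 and 11.47 in GOF papilloma, 7.93 and 8.14 in control carcinoma, and 4.77 and 5.0 in LOF carcinoma. The keratinocyte markers Krt5, Krt14, Cdh1, Itga6, Itgb4, Trp63, Sfn, Krt10 and Epcam were above background on at least 1 array of every group. Krt1 was at or below background on control carcinoma replicate 1 and on both LOF arrays. Over all genes tested, 169 (1.21%) passed limma's adjusted threshold of 0.05 in GOF papilloma and 2 (0.0144%) in LOF carcinoma.

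As background, the mevalonate pathway is set by the sterol content of the endoplasmic reticulum. When sterol is scarce, the SREBP factors leave that membrane with their escort Scap, are cut by proteases in the Golgi, and switch on the enzymes of synthesis and the receptors of uptake. Insig1 holds the escort back when sterol is plentiful and is itself an SREBP target, so that enzymes and regulator are known to move together. In skin the pathway also feeds the lipid barrier of the epidermis and the sebaceous gland.

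Promoter sequence is shown for 3 of the genes because SREBP is known to act there with NF-Y, which binds the CCAAT box, and because NR2F2 belongs to the receptors that bind AGGTCA, the core site of nuclear receptors. The RefSeq promoter table (GRCm38.p6) held a window of 300 bases for 5 of the 7 members: Hmgcs1, Idi1, Lss, Cyp51 and Insig1. Printed are the 250 bases before the start site, 5′ to 3′ on the strand of the gene, with matches in capitals to TCACNCCAC and CACCCCAC (forms of the sterol regulatory element, SRE), CCAAT and AGGTCA on either strand. Hmgcs1 lies on the plus strand at chr13:119690101-119690350, Idi1 on the plus strand at chr13:8885356-8885605, and Insig1 on the plus strand at chr5:28071162-28071411.
Hmgcs1: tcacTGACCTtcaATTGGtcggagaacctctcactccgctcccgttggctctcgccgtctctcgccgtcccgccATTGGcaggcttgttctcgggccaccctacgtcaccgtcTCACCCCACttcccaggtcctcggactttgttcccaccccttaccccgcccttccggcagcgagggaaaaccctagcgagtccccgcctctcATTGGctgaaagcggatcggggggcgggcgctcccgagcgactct
Idi1: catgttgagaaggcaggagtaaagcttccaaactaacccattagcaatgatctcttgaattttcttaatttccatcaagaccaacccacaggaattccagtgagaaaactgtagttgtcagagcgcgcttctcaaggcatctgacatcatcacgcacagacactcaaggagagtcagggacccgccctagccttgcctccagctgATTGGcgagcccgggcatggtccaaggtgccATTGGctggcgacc
Insig1: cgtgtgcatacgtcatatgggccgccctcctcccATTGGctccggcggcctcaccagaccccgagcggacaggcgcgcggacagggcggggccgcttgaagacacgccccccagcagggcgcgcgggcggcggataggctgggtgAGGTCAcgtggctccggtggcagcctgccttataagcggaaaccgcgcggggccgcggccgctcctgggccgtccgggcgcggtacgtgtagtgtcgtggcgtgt

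The SRE-like letters TCACNCCAC stood in 1 of the 5 windows, that of Hmgcs1 from -137 to -129, against 1.24% of all 32851 windows. The shorter CACCCCAC, found in 2.87% of all windows, matched there too, inside the same letters. Only exact matches were searched for, so a window without a match may still hold another form of the element. CCAAT or its complement was in 5 of 5 member windows against 37.41% of all. Its match nearest to the start site began at -45 in Hmgcs1, -14 in Idi1, -62 in Lss, -29 in Cyp51 and -216 in Insig1, leaving aside 1 match within the transcribed part of Hmgcs1. The GC box GGGCGG was in 5 of 5 against 35.66%, and the AGGTCA site in 2 of 5, Hmgcs1 at -246 and Insig1 at -105, against 16.26%. These matches describe letters and not binding, which was not measured.

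**Figure D1:**
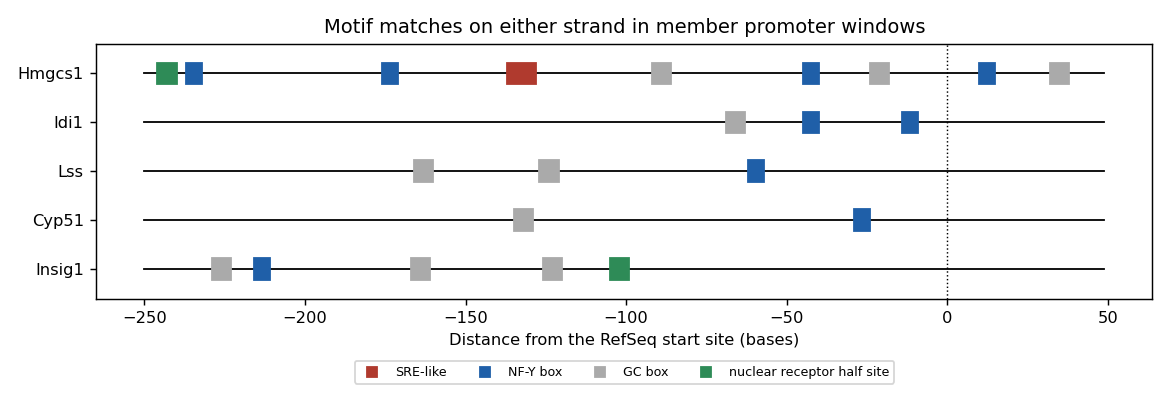
Motif matches on either strand in the RefSeq promoter windows of 5 member genes. The horizontal axis is the distance in bases from the start site (dotted line), each black line is 1 window, and coloured boxes mark the SRE-like letters, NF-Y (CCAAT) boxes, GC boxes and AGGTCA sites. The SRE-like box, an exact match to TCACNCCAC, is seen in Hmgcs1, and every window has a CCAAT box and a GC box. Other forms of the SRE were not searched for in this figure.

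In LOF carcinoma all 7 members had higher mean levels than in control carcinoma (51% of all genes did), yet none passed the test. For the 6 other than Hmgcs1, which lay at the edge of detection, the differences were 0.46 to 0.81 on the log2 scale. In GOF papilloma, where Hmgcs1 was below background on all 4 arrays and has no direction, the 6 split, with 4 differences above 0 (53.6% of all genes were) and 2 below, and again none passed. Genes whose 2 groups did not overlap numbered 6 of 7 in the carcinoma comparison, Hmgcs1 included, all higher in LOF, where 23.8% of all genes tested were higher and 19.1% lower without overlap. In papilloma they numbered 2 higher and 1 lower, against 27.3% and 21.3% of all genes. The adjusted limma count was 0 of 7 in both comparisons. At an unadjusted limma p under 0.05 it was 3 of 7 higher in LOF carcinoma (8.35% of all genes were higher and 5.44% lower) and 0 of 7 in GOF papilloma (9.94% higher and 6.47% lower). The carcinoma count was not stable when single carcinoma arrays were left out, where the median difference of the 6 ran from 0.39 to 0.96.

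**Figure D2:**
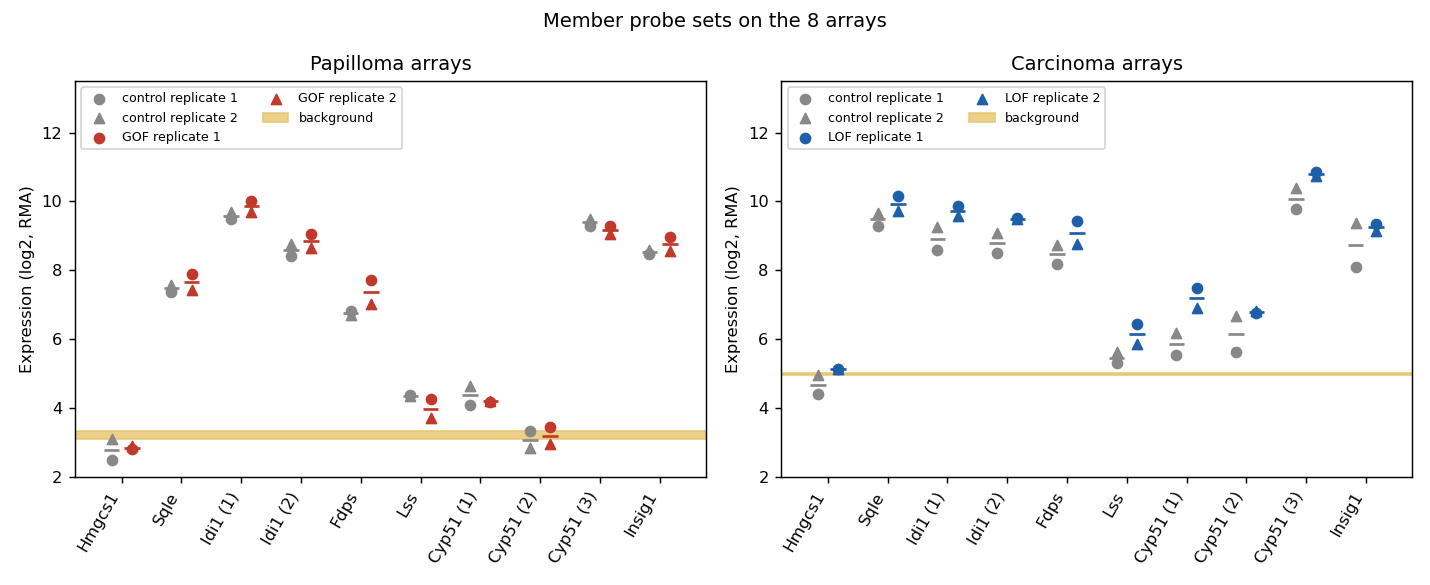
Log2 expression of the 10 member probe sets on the papilloma arrays (left) and the carcinoma arrays (right). Each point is 1 array, grey for control and coloured for GOF or LOF, circles for replicate 1 and triangles for replicate 2, short lines are group means, and the yellow band is the background range. In carcinoma the grey circle, control replicate 1, is the lowest of the 4 arrays for each of the 7 genes.

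Hmgcs1 encodes the synthase that makes HMG-CoA, the precursor of mevalonate. Its single probe set was dim, at 2.49 and 3.09 in control and 2.79 and 2.91 in GOF papilloma, all below background. In carcinoma it read 4.40 and 4.96 in the controls, of which 1 was above background, and 5.12 and 5.12 in LOF. It passed the filter on low values through the carcinoma arrays alone, and its fitted difference there was 0.44 (SE 0.25, limma adjusted p = 0.513). No fold is given for it, since it lay at the edge of detection.

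Idi1 encodes the isomerase that interconverts the isoprene building blocks. On its brighter probe set the carcinoma values were 8.58 and 9.27 in the controls and 9.87 and 9.58 in LOF, which did not overlap. The difference of 0.81 (SE 0.26, 95% interval 0.19 to 1.42), or 1.75-fold, had a limma adjusted p = 0.254. With the brightest probe set of each gene and all arrays, this was the largest member difference, at the 98.0th percentile of all genes tested. With the mean of all probe sets Cyp51 was above it (0.89 against 0.76), and without control carcinoma replicate 1 Idi1 fell to 0.46, below Lss at 0.53. In papilloma the same probe set read 9.48 and 9.69 in control and 10.02 and 9.71 in GOF, a difference of 0.28 (SE 0.26, limma adjusted p = 0.678). Its second probe set gave 0.71 in LOF carcinoma and 0.26 in GOF papilloma. The papilloma groups were apart by only 0.015 on the first probe set and overlapped on the second, at 8.41 and 8.78 in control and 9.07 and 8.65 in GOF.

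Fdps makes farnesyl diphosphate, from which both sterols and protein prenyl groups are drawn. Its values in control papilloma were 6.81 and 6.69 and in GOF papilloma 7.71 and 7.01, so that GOF was higher without overlap. The difference, 0.61 (SE 0.32, limma adjusted p = 0.416), was the largest of the 7 in papilloma. In carcinoma it read 8.20 and 8.73 in the controls and 9.42 and 8.76 in LOF, where the lower LOF array stood just above the higher control. That difference was 0.63 (SE 0.32, limma adjusted p = 0.461). Fdps, and Idi1 on 1 of its 2 probe sets, were higher without overlap in both comparisons, as were 7.4% of all genes.

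Sqle encodes squalene epoxidase, the first oxygen-requiring and a rate-limiting step toward sterols. It read 9.28 and 9.67 in control carcinoma against 10.15 and 9.73 in LOF, a difference of 0.46 (SE 0.24, limma adjusted p = 0.466). In papilloma it read 7.37 and 7.58 in control and 7.89 and 7.42 in GOF, which overlapped (0.18, SE 0.24, limma adjusted p = 0.803).

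Lss, the cyclase that closes the sterol rings, and Cyp51, which removes a methyl group from lanosterol, were the 2 members with means below control in GOF papilloma. Lss read 4.39 and 4.34 in control and 4.25 and 3.71 in GOF papilloma, lower without overlap (-0.38, SE 0.27, limma adjusted p = 0.551). In carcinoma it stood at 5.30 and 5.62 in the controls and 6.45 and 5.85 in LOF, higher without overlap by 0.69 (SE 0.27, limma adjusted p = 0.326). The contrast of the 2 effects for Lss was -1.07 (SE 0.37, limma adjusted p = 0.290), short of the threshold. It sets side by side differences within tables of separate scale.

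The brightest Cyp51 probe set read 9.78 and 10.39 in control carcinoma and 10.84 and 10.74 in LOF. Its difference of 0.71 (SE 0.22, 95% interval 0.18 to 1.25), or 1.64-fold, had the lowest adjusted p of the 7 (limma, 0.248). In papilloma it read 9.28 and 9.51 in control and 9.29 and 9.04 in GOF, a difference of -0.23 (SE 0.22, limma adjusted p = 0.706). Its 3 probe sets were all higher without overlap in LOF carcinoma but differed in size, at 1.34, 0.63 and 0.71. In a fit of all 22518 kept single-gene probe sets, the one at 1.34 had a limma adjusted p = 0.153. The contrast of the effects for Cyp51 was -0.94 (SE 0.32, limma adjusted p = 0.270). By that test 11 of all genes (0.0789%) passed. For the other 4 members, leaving Hmgcs1 aside, the contrast lay between -0.53 and -0.02, and its lowest limma adjusted p was 0.594.

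Insig1, the sterol-sensitive anchor that holds back SREBP, was the member whose groups overlapped in carcinoma. It read 8.09 and 9.37 in the controls and 9.34 and 9.15 in LOF, so that control replicate 2 was above both LOF arrays. The difference of 0.52 (SE 0.39, limma adjusted p = 0.645) turned to -0.12 without control carcinoma replicate 1. In papilloma it read 8.48 and 8.59 in control and 8.98 and 8.57 in GOF (0.24, SE 0.39, limma adjusted p = 0.843).

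The arrays behind the carcinoma difference were not alike. Control carcinoma replicate 1 was the lowest of the 4 carcinoma arrays for 7 of 7 members, as it was for 19.6% of all genes, and LOF replicate 1 was the highest for 5 of 7 (23.6% of all genes). The gap between the 2 control arrays ran from 0.32 for Lss to 1.28 for Insig1. It was larger than the fitted difference for Hmgcs1 and Insig1, as it was for 55.7% of all genes. The median LOF difference was 0.63 over the 7 members and 0.66 over the 6 other than Hmgcs1. Over those 6 it was 0.39 without control replicate 1, 0.96 without control replicate 2, 0.40 without LOF replicate 1 and 0.86 without LOF replicate 2. Without control replicate 1, 5 of the 6 differences were above 0. In papilloma the median of the 6 was 0.21, which turned to -0.01 without GOF replicate 1. It was 0.43 without GOF replicate 2, 0.12 without control replicate 1 and 0.29 without control replicate 2. The median of all genes was 0.02 in papilloma and 0.01 in carcinoma.

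The differences of the other enzymes of the pathway went both ways. Of 11 tested in a list of 15, none passed in either comparison, and 7 were above 0 in LOF carcinoma (51% of all genes were), with a median of 0.04. Lbr, the sterol reductase of the nuclear envelope, had the highest difference at 0.70 (SE 0.24, limma adjusted p = 0.286), followed by Mvd, which makes isopentenyl diphosphate, at 0.46. Sc5d (-0.37) and Hsd17b7 (-0.33), which act late on the sterol rings, were lowest. In GOF papilloma 8 of the 11 were above 0 (53.6% of all genes were), with a median of 0.12. The highest there were Nsdhl, which takes part in removing methyl groups, at 1.05 (SE 0.31, limma adjusted p = 0.162), and the mevalonate kinase gene Mvk at 0.88 (SE 0.23, limma adjusted p = 0.130). Tm7sf2 (-0.37) and Ebp (-0.07) were lowest. At an unadjusted limma p under 0.05 the 11 counted 3 higher in GOF papilloma (9.94% of all genes were) and 1 higher in LOF carcinoma (8.35% were).

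**Figure D3:**
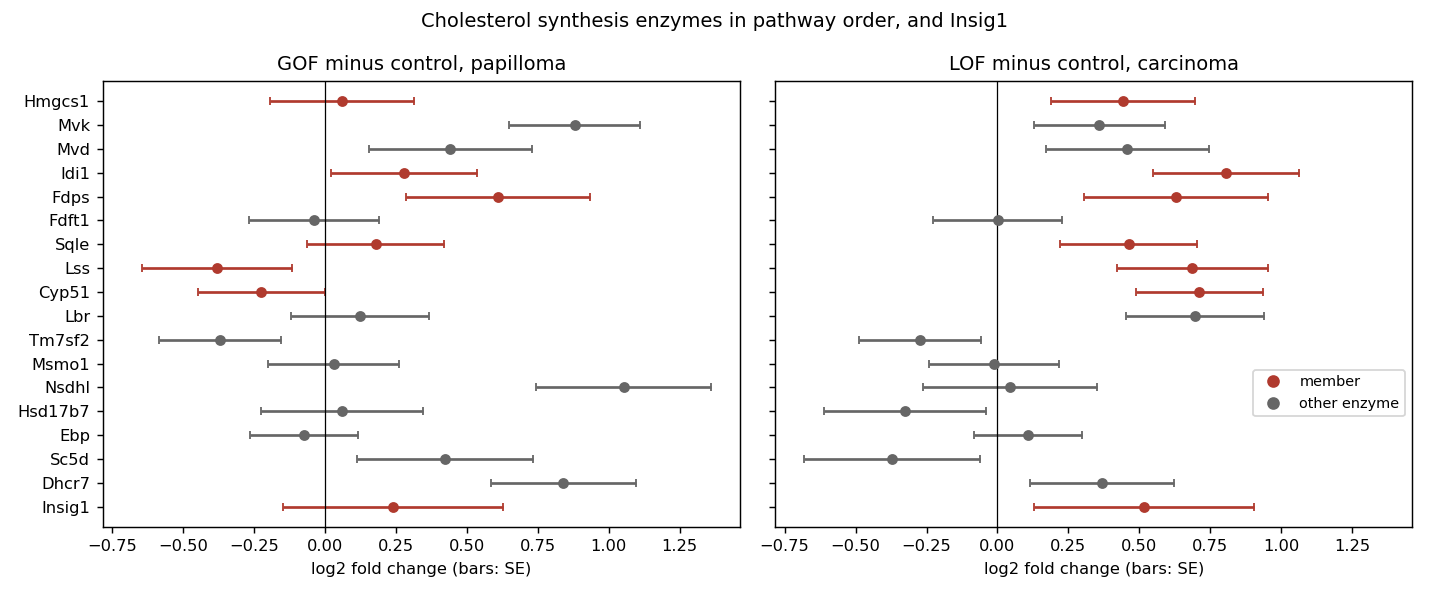
Log2 fold change of each cholesterol synthesis enzyme, top to bottom in pathway order, and of Insig1, in GOF papilloma (left) and LOF carcinoma (right). Points are limma estimates, bars are their standard errors, and members are red. In carcinoma the 7 red points lie between 0.44 (Hmgcs1, at the edge of detection) and 0.81, while the grey ones run from -0.37 to 0.70. The papilloma point of Hmgcs1 comes from values below background. The members were chosen with earlier results of these data known.

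Uptake and transport genes were also without a call. Of 9 tested in a list of 12, 3 were above 0 in LOF carcinoma (51% of all genes were), with a median of -0.12. In GOF papilloma 7 were above 0 (53.6% of all genes were), with a median of 0.17. The 2 highest in carcinoma were lipoprotein receptors, but the receptor gene Vldlr, named after its values were seen, stood at -0.205 there. Vldlr was above background on neither LOF array, and its difference in GOF papilloma was 0.09. Scarb1, the HDL receptor, read 7.21 and 7.37 in the controls and 8.63 and 8.01 in LOF, a difference of 1.03 (SE 0.26, limma adjusted p = 0.188). Lrp8, a member of the LDL receptor family, read 6.66 and 6.65 against 7.68 and 7.42, a difference of 0.90 (SE 0.17, limma adjusted p = 0.130). For Lrp8 the control arrays thus differed little, and both LOF arrays lay well above them. In GOF papilloma Scarb1 was at 0.63 and Lrp8 at 0.58, and the lysosomal acid lipase gene Lipa was highest at 0.65. Lowest were Lipa (-0.47) and Mylip (-0.37), whose product marks LDL receptors for breakdown, in carcinoma, and Npc1 (-0.04) and Mylip (-0.03) in papilloma. At an unadjusted limma p under 0.05, Scarb1 and Lrp8 were counted as higher in both comparisons. Of all genes, 9.94% were higher at that limit in GOF papilloma and 8.35% in LOF carcinoma, and the share in both was not counted.

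The genes that control SREBP were mixed. Of 8 tested in a list of 11, none passed, and the medians were 0.04 in GOF papilloma and 0.19 in LOF carcinoma. Insig2, the second anchor protein, was highest in GOF papilloma (0.89, SE 0.21, limma adjusted p = 0.103) and lowest in LOF carcinoma (-0.38, limma adjusted p = 0.491). Erlin1, a membrane scaffold gene of the endoplasmic reticulum, was next in GOF papilloma at 0.48 and second in carcinoma at 0.45. The Golgi protease gene Mbtps1 (-0.67) and the escort gene Scap (-0.47) were lowest in GOF papilloma. Mbtps2, the other protease, was highest in LOF carcinoma at 0.65 (limma adjusted p = 0.322), and Erlin2 was second lowest there at -0.28. The SREBP2 gene Srebf2, named for its role after its values were seen, stood at -0.24 in GOF papilloma and 0.40 in LOF carcinoma, neither past the threshold.

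Among 8 genes of sterol efflux, esterification and oxysterols tested in a list of 11, none passed. The efflux pump gene Abcg1 was at 1.20 in GOF papilloma and -1.34 in LOF carcinoma (SE 0.56 for each, limma adjusted p = 0.349 and 0.361). It was above background on neither LOF carcinoma array and on only 1 control papilloma array, and its control carcinoma arrays read 5.44 and 7.05. The apolipoprotein gene Apoe was below control in both, at -1.33 in GOF papilloma (limma adjusted p = 0.0762) and -0.59 in LOF carcinoma. In papilloma Nceh1 was second highest at 0.63 and Cyp27a1 second lowest at -0.29. Highest in carcinoma were the oxysterol hydroxylase gene Cyp7b1 (0.89) and Ch25h (0.54). The list medians were 0.46 in papilloma and 0.15 in carcinoma.

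Of 11 fatty acid synthesis genes tested in a list of 12, none passed, with medians of 0.04 and 0.27 in GOF papilloma and LOF carcinoma. The elongase gene Elovl6 stood at -1.14 in GOF papilloma and 0.90 in LOF carcinoma, and the desaturase gene Scd1 at -1.30 and 0.27. Acly, which supplies cytosolic acetyl-CoA, was highest in GOF papilloma at 0.67 (limma adjusted p = 0.0655), followed by the malic enzyme gene Me1 at 0.62. In carcinoma Fads2 was second highest at 0.48, and Acss2 (-0.40) and Me1 (-0.33) were lowest. The isoprenoid branch, which uses farnesyl diphosphate for prenyl groups, dolichol and ubiquinone, had 11 genes tested of 12, all 11 above 0 in LOF carcinoma (51% of all genes were), with a median of 0.32 and none past the threshold. Coq2 (0.69, limma adjusted p = 0.150) and the prenyltransferase gene Rabggtb (0.67, limma adjusted p = 0.165) were highest there, and Dhdds (0.03) and Fntb (0.13) lowest. In GOF papilloma Icmt (0.56) and Ggps1 (0.37) were highest and Pdss2 (-0.37) and Coq2 (-0.03) lowest.

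**Figure D4:**
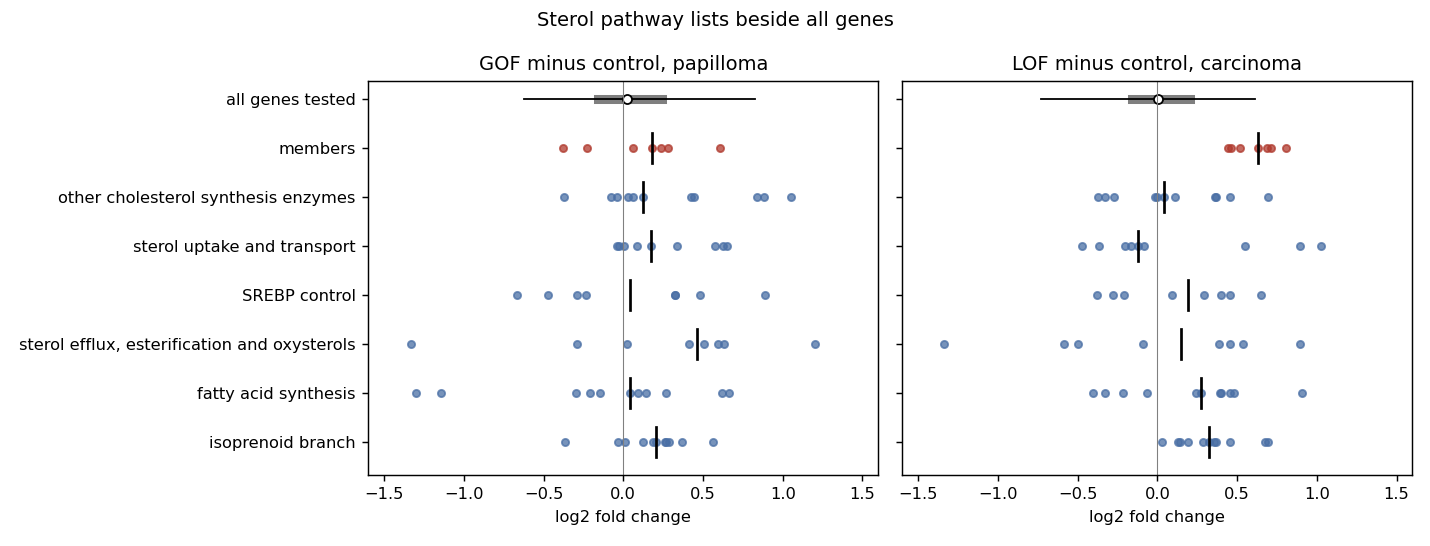
Log2 fold changes of the genes in each sterol pathway list, 1 point per gene, with the list median as a vertical tick, in GOF papilloma (left) and LOF carcinoma (right). The top line shows all genes tested (white circle the median, thick bar the middle 50%, thin line the middle 90%). In carcinoma the member median is 0.63 and that of the other enzymes 0.04. The lists were chosen with earlier results of these data known, so the medians are not an independent comparison.

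Other signals differed between the same arrays, and their part in the member values was not tested. The mean of 14 proliferation genes was 8.81 and 9.02 in control carcinoma and 9.38 and 9.84 in LOF, and 6.21 and 6.60 in control papilloma against 7.23 and 6.94 in GOF. Their median difference was 0.68 in LOF carcinoma and 0.70 in GOF papilloma, with none past the threshold. All 11 macrophage markers were above 0 in GOF papilloma (53.6% of all genes were), and 10 were higher without overlap (27.3% of all genes were). Of the 11, 2 passed the threshold, Lyz2 and C1qc, where 106 of all 13935 genes passed as higher. The list mean was 5.31 and 6.25 in GOF papilloma against 3.25 and 3.16 in the controls. In those controls Lyz2, C1qb, Cd14 and Ptprc were at or below background. In carcinoma the macrophage mean was 5.24 and 6.90 in control and 5.11 and 5.47 in LOF. All 9 endothelial markers were higher without overlap in GOF papilloma. Of the 9, 5 passed the threshold (Emcn, Plvap, Egfl7, Flt1 and Cdh5, by 1.03 to 3.09, limma adjusted p = 0.0287 to 0.0493). The list mean was 5.44 and 5.59 in GOF papilloma against 3.58 and 3.39 in the controls. In carcinoma it was 5.37 and 6.25 in control and 5.13 and 5.24 in LOF. The mean of 7 fibroblast markers was 6.96 and 8.69 in control carcinoma against 6.38 and 7.21 in LOF, and 8.62 and 7.43 in control papilloma against 8.60 and 8.95 in GOF.

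Of the markers of sebocytes, the cells of the sebaceous gland, all 6 tested had differences below 0 in GOF papilloma (median -0.74). In LOF carcinoma 5 of 6 had (median -0.62), and none passed the threshold in either. Of all genes, 53.6% were above 0 in GOF papilloma and 51% in LOF carcinoma. The mean of the sebocyte markers was 7.94 and 8.71 in control papilloma, 7.13 and 7.53 in GOF, 7.56 and 8.14 in control carcinoma and 7.03 and 6.96 in LOF. Of the 3 adipocyte markers tested, Adipoq was at or below background in all groups, and the list mean was 6.24 and 5.57 in control papilloma, 6.19 and 6.80 in GOF, 6.11 and 7.04 in control carcinoma and 5.81 and 6.28 in LOF. T cell markers were close to background throughout, with Cd2, Cd3e and Cd3g at or below it in all 4 groups, and list means of 2.86 to 3.03 in papilloma and 4.67 to 4.96 in carcinoma. The sorting antigen Epcam fell in GOF papilloma (-1.53, limma adjusted p = 0.0372), and the mean of the 10 keratinocyte markers was 10.50 and 10.43 in control papilloma against 10.00 and 10.03 in GOF, and 10.15 and 10.26 in control carcinoma against 9.96 and 10.06 in LOF. The 8 dissociation stress genes had a median of -0.38 in GOF papilloma and -0.11 in LOF carcinoma, with none past the threshold. In sorted bulk samples, fewer cells of a type and less RNA per cell cannot be told apart.

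**Figure D5:**
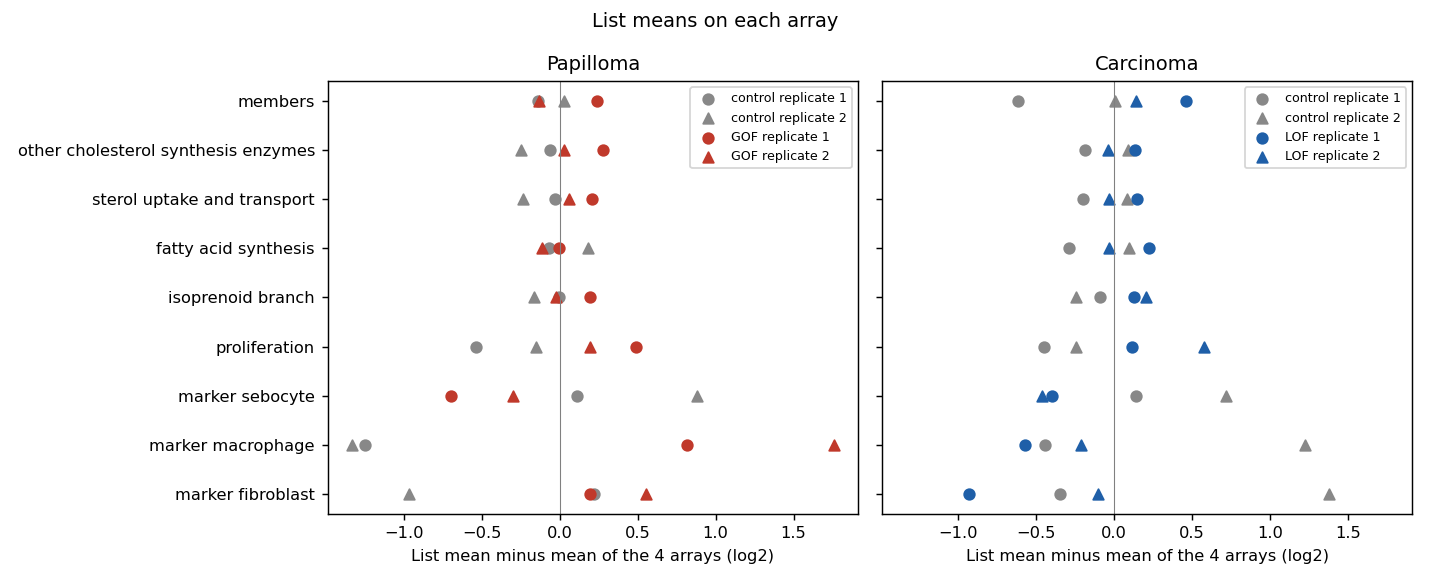
Mean log2 level of each gene list on each array, minus its mean over the 4 arrays of the tumour type, in papilloma (left) and carcinoma (right). Grey marks are controls, coloured marks GOF or LOF, circles replicate 1 and triangles replicate 2. The member mean is lowest on control carcinoma replicate 1 (-0.62), and the macrophage and fibroblast means are highest in carcinoma on control replicate 2 (1.22 and 1.38).

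The genes outside all lists whose profile was most like that of the members were Pgbd5, Fbxo21, BC062258, Txnl4b and Stxbp5. Likeness was Pearson's r over 8 arrays between a gene and the member mean, both centred within tumour type, and it ran from 0.948 to 0.971, as a description without a test. The 5 genes shared the low value on control carcinoma replicate 1, as for Pgbd5 at 4.23 against 4.74, 5.15 and 4.82 on the other 3 carcinoma arrays. That follows from the choice, since the member mean they were matched to was lowest on that array. Pgbd5 itself was above background on LOF carcinoma replicate 1 alone. Fbxo21 and BC062258 were below background on control papilloma replicate 1 and GOF papilloma replicate 2. The member mean included Hmgcs1, which was below background on all papilloma arrays, so r rests in part on values without detection. The differences of the 5 genes in LOF carcinoma were 0.16 to 0.50, and none passed the threshold. Within the sterol pathway lists, Stard4, a sterol carrier, was closest to the member mean (r = 0.869), followed by Ggps1 (0.835), Scarb1 (0.833) and Rabggtb (0.829). By the median r of a list, proliferation genes were most like the members (0.604), followed by the isoprenoid branch (0.436), fatty acid synthesis (0.367), the other cholesterol synthesis enzymes (0.346), efflux (0.233), uptake and transport (0.109) and SREBP control (0.031).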

How the data were processed

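Affymetrix mouse genome PM strip arrays were read, and the authors deposited their log2 values after RMA summarisation, per the labels' protocols. RMA and affy are named there with no version, and no other step is given in the sources used here. The table had 45141 probe sets: 104 controls, 28898 with a single gene symbol, 551 with more than 1 and 15588 without. By Entrez number, 28689 single-gene probe sets were found in the RefSeq table of assembly GRCm38.p6, used for names.

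Probe sets above the overall median (log2 4.23) on 2 or more arrays were kept, and the brightest single-gene probe set stood for its gene. That cut lies below the carcinoma background of 4.95 to 5.01, so genes without a detected value could pass. Of the 13935 genes tested, 9481 to 11172 were above background on a given array. Shares and percentiles of all genes include those that were not. The 13935 genes were fitted with limma 3.58.1 in R 4.3.3 (lmFit, eBayes) with 4 group means, leaving 4 residual degrees of freedom beside a prior of 2.67. P-values were adjusted by Benjamini-Hochberg over all genes. An exact permutation test of 2 arrays against 2 cannot go below p = 0.333. The fit was tested on simulated data. Background was taken per array as the maximum over 44 bacterial and tag control probe sets.

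Members, lists and tests were chosen with earlier results of these data known. Named from each sterol pathway list were the 2 highest and 2 lowest genes per comparison and any past the threshold, and, outside all lists, the 5 genes most like the members. Genes named from the marker lists were chosen after their values were seen. Alternatives were other filters, probe set rules, normalizations, variance priors, a replicate block, single tumour types and leaving out each array. Promoter windows are RefSeq's. The number of arrays limits the precision. List genes without a probe set of their own were not analysed here.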

Additional observations from a re-analysis of the deposited data

Results flagged for a closer look

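Lss was lower on both GOF papilloma arrays than on both control arrays, and higher on both LOF carcinoma arrays than on both of their controls. By comparison, 21.3% of all genes were lower without overlap in GOF papilloma and 23.8% higher in LOF carcinoma. The share that did both was not counted. The Lss probe set was dim, at 5.30 and 5.62 in control carcinoma, where background was 4.99 and 4.96. The contrast of the 2 effects was -1.07 (SE 0.37), and limma's test of it gave an adjusted p = 0.290, short of the threshold. It ranged from -1.37 to -0.77 when single arrays were left out. Groups of 2 arrays are too small to single out an outlying array.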

How the results depend on the processing

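No member passed the adjusted threshold in either comparison or in the contrast of effects under any alternative that was run. Over those alternatives, all fitted by gene, the lowest limma adjusted p of a member was 0.323 in GOF papilloma, 0.173 in LOF carcinoma and 0.140 in the contrast. Hmgcs1 was below background on all papilloma arrays, so its range there when single arrays were left out, -0.24 to 0.36, has no direction and says nothing about stability. Sqle in GOF papilloma ranged from -0.060 (without GOF replicate 1) to 0.42. Insig1 ranged from -0.12 (without control carcinoma replicate 1) to 1.16 in LOF carcinoma, and from -0.92 to 0.36 (again without that array) in the contrast. The Fdps contrast, -0.02, ranged from -0.37 to 0.33 and turned to 0.04 without control papilloma replicate 1, 0.33 without GOF replicate 2, 0.24 without control carcinoma replicate 1 and 0.31 without LOF replicate 1. These turns come with fewer arrays. Counts over all genes moved more. Same-numbered arrays deviated together at r = 0.002 in papilloma and 0.13 in carcinoma, and no label says that a number marks a pair. With the replicate block the counts were 3 in GOF papilloma, 0 in LOF carcinoma and 3 in the contrast (unadjusted p under 0.05: 2357, 2023 and 2018). Single arrays left out gave 1 to 297, 0 to 122 and 1 to 274. In LOF carcinoma the count was 0 with the mean of all probe sets or with the 4 carcinoma arrays alone (2072 and 1617 unadjusted) and 32 with a trended and robust prior. In the contrast, 11 in the main setting, it was 36 with the filter at the 75th percentile, 41 with the filter within each tumour type, 6 with the mean of probe sets, 18 without _s_at and _x_at probe sets, 51 with median centring and 68 with the trended prior; the cause was not tested. The medians over the 6 members other than Hmgcs1 were chosen after seeing the data. The stricter filter removed Hmgcs1 and Lss, whose dim probe sets limit them most.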
